A study of Homo sapiens with 10 samples.

Results

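Nuclear polyadenylated RNA of HEK293 cells, a human embryonic kidney line, was compared between siPAP and control cells, with 2 libraries in each group. Nuclear RNA here means that of the detergent-insoluble nuclear fraction, not of whole nuclei. Per the study, this fraction is enriched for RNAs at chromatin and nuclear speckles and lacks some soluble nuclear material. The siPAP cells had been treated for 3 days with siRNAs against both canonical nuclear poly(A) polymerases, PAPα (gene PAPOLA) and PAPγ (gene PAPOLG). The control is named only as control in the labels and is described as untreated in the study's text, and no level of remaining PAP protein was analysed here. The comparison was made over all 30809 assembled loci for which the table pairs control nuclear with siPAP nuclear RNA, and the same 30809 loci in total RNA of siPAP and control cells served to show where the nuclear change differed. The series holds 10 samples in 5 groups, and its LALA nuclear samples were not analysed here.

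Canonical poly(A) polymerases add the poly(A) tail after a pre-mRNA has been cleaved at its 3′ end. In the nucleus the tail can be extended further when PABPN1, a protein bound to the tail, stimulates the polymerase, and for some noncoding and unexported RNAs this extension is linked to decay by the nuclear exosome, a pathway called PABPN1- and PAP-mediated RNA decay (PPD). Promoter upstream transcripts (PROMPTs), which run antisense from the promoters of protein-coding genes, noncoding snoRNA host genes (ncSNHGs), primary microRNA transcripts and some long noncoding RNAs (lncRNAs) are RNAs of this kind.

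Levels are fragments per kilobase of transcript scaled to the number of mapped fragments (FPKM) and are the authors' mean over the 2 libraries of a group. No value of a single library was used, so the ratios below have no SD, no p-value and no replicate check, and the spread between the 2 libraries is unknown. A locus counted as higher or lower when its group means differed by 2-fold or more and the higher nuclear mean was at least 1 FPKM. All libraries were made from polyadenylated RNA, so a difference in the amount of an RNA and one in the presence or length of its tail cannot be told apart. Nor can fewer cells with an RNA and less RNA per cell be told apart in these bulk samples. A position in the files is that of an assembled region, which several loci can share.

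Both targeted mRNAs were lower in the siPAP cells. PAPOLA was at 61.7 FPKM in control and 11.2 FPKM in siPAP nuclear RNA, a log2 ratio of -2.46, and PAPOLG was at 10.6 and 4.46 FPKM, a log2 ratio of -1.25. The total RNA of the same treatments gave log2 ratios of -2.85 and -1.74. Of 7 other poly(A) polymerases and related nucleotidyltransferases that were measured, such as TUT1 (8.89 and 7.72 FPKM) and PAPD5 (7.17 and 5.56 FPKM), none differed by 2-fold at its main locus. Among protein-coding genes 1.07% were 2-fold higher and 1.71% lower. A less abundant TUT1 locus went from 3.81 to 9.77 FPKM. ACTB, encoding β-actin, was at 1193 and 1215 FPKM, and GAPDH, a glycolytic enzyme, at 1102 and 964 FPKM.

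Of 13704 loci with at least 1 FPKM in a nuclear group, 13636 were above 0 in both groups and gave a ratio. In siPAP nuclear RNA, 930 loci were higher, which is 6.82% of those with a ratio, and 275 were lower, which is 2.02%. The median log2 ratio was -0.09, and 80.5% of the loci differed by less than 1.5-fold. With this level filter, the excess of higher loci grew with the size of the change. At 1.5-fold 1539 were higher and 1115 lower, at 3-fold 465 and 59, and at 4-fold 245 and 24. Part of this excess rests on the level filter, because a locus below 1 FPKM in control could pass only by being higher in siPAP. There were 773 such loci, and they held 533 of the 930 higher loci. Among loci with at least 1 FPKM in control total RNA, a group that the nuclear ratio does not use, 376 were higher and 226 lower. The counts at other folds given above were made without this second filter.

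**Figure D1:**
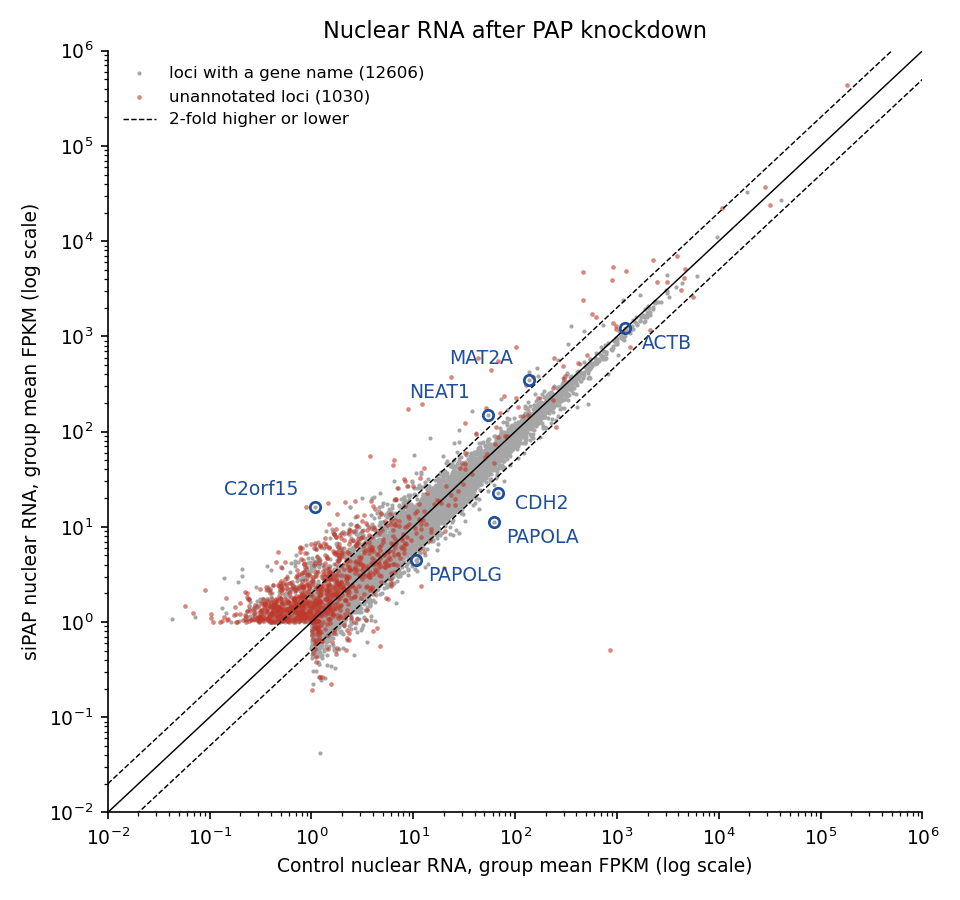
Each point is a locus with at least 1 FPKM in a nuclear group and above 0 in both, with its group mean FPKM in control nuclear RNA (x axis, log scale) and siPAP nuclear RNA (y axis, log scale). Most of the 12606 named loci lie along the diagonal, the 1030 unannotated loci lie mostly above it at low levels, and PAPOLA, PAPOLG and CDH2 lie below the 2-fold line.

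Unannotated loci, which the assembly built from the reads and which carry no gene name, made up the largest group of higher loci. Of 1030 with a ratio, 450 (43.7%) were higher and 45 (4.37%) lower, and their median log2 ratio was 0.81. They supplied 48.4% of all higher loci. Of the 1030, 388 were below 1 FPKM in control and passed the filter only through siPAP, so they could only have a ratio above 1. These 388 held 295 of the 450 higher loci. Among the 560 unannotated loci that had at least 1 FPKM in control total RNA, the median log2 ratio was 0.35. The share that was higher differed by position. Of 197 that lay within 1000 bases of a protein-coding transcript start without covering one, 126 (64.0%) were higher, compared with 70 of 207 (33.8%) that lay more than 50000 bases from any such start. With the filter on control total RNA these shares were 45.9% and 22.1%.

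The 8 unannotated loci with the largest ratio in nuclear RNA, among those at 5 FPKM or more, had log2 ratios between 3.53 and 4.30. XLOC_027144, XLOC_003073, XLOC_015939 and XLOC_021903 were below 5 FPKM in control and passed that minimum only through siPAP. The regions of XLOC_020729 and XLOC_003557 span only 183 and 180 bases. XLOC_020729 went from 8.87 to 175 FPKM in nuclear RNA and from 9.18 to 128 FPKM in total RNA. XLOC_019033 went from 43.6 to 587 FPKM in nuclear RNA, while in total RNA it was at 601 in control and 382 FPKM in siPAP. The other 7 of these loci were more than 2-fold higher in total RNA as well.

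Many upstream transcripts had already been classed as PROMPTs by the study, which selected them for a rise in this and other comparisons of the series, so their own rise is no finding here. The genes of the same promoters had no part in that choice. For 140 such PROMPTs the partner that the study names, in most cases an mRNA, was measured and lay within 5000 bases. Of the named partners 1 lay on another chromosome and was left out. The median PROMPT was at 1.04 FPKM in control and 3.88 FPKM in siPAP nuclear RNA. The median of the 138 partners was 22.7 FPKM in control and 21.8 FPKM in siPAP. The partners' median log2 ratio was -0.07, close to the median of all loci, with quartiles of -0.23 and 0.10. Of the partners, 2 were 2-fold higher and 0 were 2-fold lower.

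Individual pairs spanned a wide range of mRNA levels. The PROMPT of HSPA8, the constitutive HSC70 chaperone, went from 0.770 to 6.16 FPKM, whereas HSPA8 mRNA was at 1163 FPKM in control and 1162 FPKM in siPAP. The PROMPT of HNRNPA3, a splicing factor, went from 0.360 to 2.32 FPKM beside an mRNA at 208 FPKM in both groups. Both of these PROMPTs were below 1 FPKM in control and reached it only in siPAP. The PROMPT of UQCRC2, a subunit of respiratory complex III, went from 1.80 to 13.7 FPKM while its mRNA was at 91.4 and 78.0 FPKM. SNHG7, a snoRNA host, was one of the 2 higher partners, at 71.8 and 220 FPKM.

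The study designed quantitative PCR assays for 6 PROMPTs, and the amplicons show where in the genome these transcripts lie. Each primer pair was found once within 1000 bases on the chromosome of its locus in GRCh37, the assembly that hg19 corresponds to, and each amplicon lay inside the assembled locus. The sequences are printed 5′ to 3′ in the direction of the forward primer, with both primer sites in capitals.
NFYC PROMPT, chr1:41156978-41157121, minus strand: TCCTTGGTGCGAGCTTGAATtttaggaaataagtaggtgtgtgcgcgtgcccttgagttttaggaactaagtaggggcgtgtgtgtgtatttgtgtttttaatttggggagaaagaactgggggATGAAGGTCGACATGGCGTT
CHD1 PROMPT, chr5:98265419-98265482, plus strand: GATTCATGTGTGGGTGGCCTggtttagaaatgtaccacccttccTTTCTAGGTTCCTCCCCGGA
ZNF143 PROMPT, chr11:9481719-9481804, minus strand: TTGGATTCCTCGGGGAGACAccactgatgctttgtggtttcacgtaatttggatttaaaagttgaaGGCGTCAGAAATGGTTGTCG
KMT2E PROMPT, chr7:104652831-104652922, minus strand: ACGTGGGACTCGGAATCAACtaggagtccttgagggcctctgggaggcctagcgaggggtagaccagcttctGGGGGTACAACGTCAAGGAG
PFN2 PROMPT, chr3:149689276-149689408, plus strand: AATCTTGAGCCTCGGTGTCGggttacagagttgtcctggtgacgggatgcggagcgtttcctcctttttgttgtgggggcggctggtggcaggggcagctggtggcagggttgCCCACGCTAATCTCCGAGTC
FUBP3 PROMPT, chr9:133454116-133454187, minus strand: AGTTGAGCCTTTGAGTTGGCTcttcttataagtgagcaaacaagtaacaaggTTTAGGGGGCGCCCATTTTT

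In the RNA-seq data the NFYC PROMPT (LOC100130557) was at 3.90 FPKM in control and 20.1 FPKM in siPAP nuclear RNA, and NFYC mRNA, a subunit of the CCAAT-binding factor NF-Y, was at 30.9 and 25.8 FPKM. The CHD1 PROMPT (LOC100289230) was at 1.65 and 8.36 FPKM, and the mRNA of CHD1, a chromatin remodeler, at 35.3 and 30.4 FPKM. The ZNF143 PROMPT (LOC644656) was at 4.74 and 22.9 FPKM and thereby above its mRNA, a promoter-binding zinc finger protein, which was at 9.80 and 10.3 FPKM. In siPAP nuclear RNA this was the only one of the 6 that exceeded its partner. The KMT2E PROMPT (LOC100216545) was at 0.973 and 4.27 FPKM and thus reached 1 FPKM only in siPAP. The mRNA of KMT2E, listed as MLL5, was at 16.8 and 18.0 FPKM. The PFN2 PROMPT (LOC646903) was at 2.47 and 10.8 FPKM beside the mRNA of the actin-binding profilin 2 at 76.2 and 98.0 FPKM. The FUBP3 PROMPT (LOC100272217) was at 1.18 and 4.70 FPKM beside an mRNA at 91.9 and 81.6 FPKM. The PROMPTs were thus 3.99-fold to 5.16-fold higher, and their mRNAs differed by factors between 0.837 and 1.29. The study picked these 6 PROMPTs for assay, so their own rise is no finding here.

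**Figure D2:**
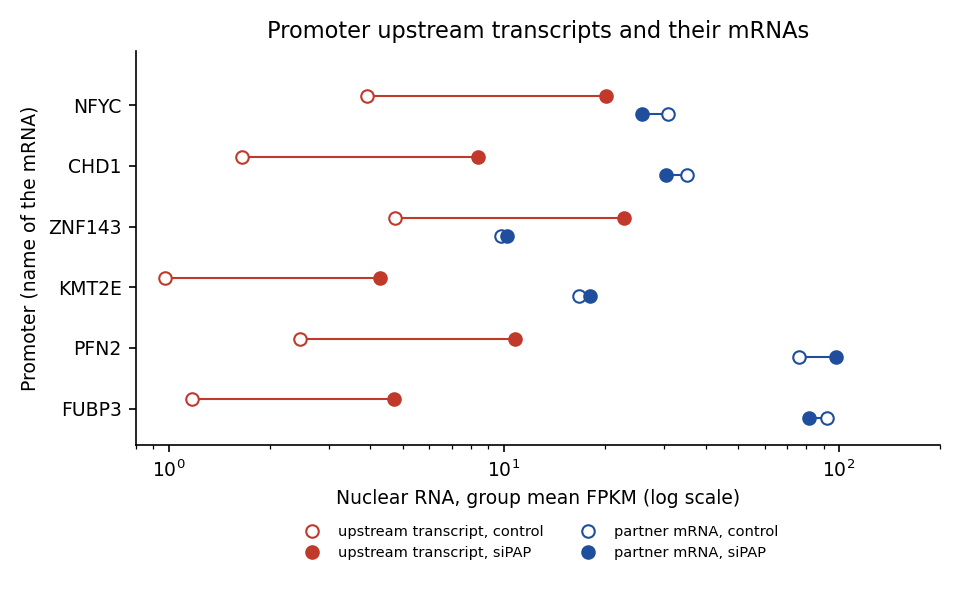
Group mean FPKM in nuclear RNA (x axis, log scale) of the 6 PROMPTs with a quantitative PCR assay (red) and of the mRNA of the same promoter (blue), with control as open and siPAP as filled circles. Each red pair spans about the same distance, from 3.99-fold to 5.16-fold, while the blue pairs lie between 0.837-fold and 1.29-fold.

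Loci that share a gene name could also be set side by side. The assembly gave 1 name to several loci of the same region, and in 297 regions at least 2 such loci had a ratio. The locus more abundant in control total RNA had a median log2 ratio of -0.08, and 16 (5.39%) were higher and 3 lower. The less abundant locus had a median log2 ratio of 1.15, and 165 (55.6%) were higher and 10 lower, and in 251 of the 297 regions (84.5%) its ratio was the larger. The less abundant locus was at a median of 1.11 FPKM in control nuclear RNA, so the level filter bears on it. In the 132 regions where it had at least 1 FPKM in control total RNA, the medians were 0.79 and -0.05, and 52 against 5 loci were higher. Of the less abundant loci, 39 were in the study's list of transcripts selected for a rise, 26 of them as PROMPTs. Without every region that holds a locus of that list, 251 remained, with medians of 0.98 and -0.09, and 123 against 10 loci were higher. With the filter on control total RNA as well, 116 remained, with medians of 0.68 and -0.07.

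Several of the largest ratios under a gene name thus belonged to the less abundant of its loci. MAD2L1, a spindle checkpoint gene, had one locus that went from 1.38 to 8.94 FPKM and another that went from 181 to 140 FPKM. PTPN2, a tyrosine phosphatase, had loci at 0.704 and 5.11 FPKM and at 22.0 and 19.4 FPKM in control and siPAP. For NUAK1, a kinase, the values were 1.15 and 6.97 FPKM against 14.2 and 13.5 FPKM, and for LRRFIP2 they were 0.901 and 5.29 FPKM against 15.6 and 11.3 FPKM. The less abundant PTPN2 and LRRFIP2 loci are PROMPTs of the study's list and passed the filter only through siPAP. DLEU2, the host of miR-15a and miR-16-1, had a locus that went from 1.11 to 5.86 FPKM beside one at 9.61 and 10.5 FPKM. The locus that carries the names MIR15A and MIR16-1 was at 13.6 FPKM in control and 12.8 FPKM in siPAP. C2orf15 was an exception. Its most abundant locus, which had the largest ratio of all loci with a single gene name at 5 FPKM or more, went from 1.09 to 16.0 FPKM, and a further locus went from 1.27 to 2.06 FPKM.

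**Figure D3:**
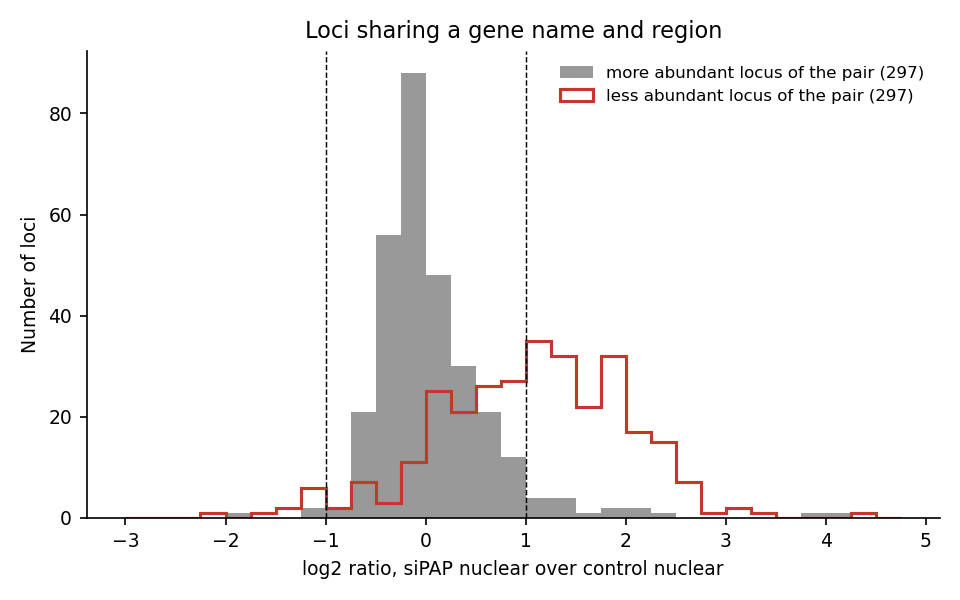
Number of loci (y axis) by log2 ratio of siPAP over control nuclear RNA (x axis) for 297 regions in which several loci share a gene name, with dashed lines at 2-fold. The more abundant loci (grey) centre on -0.08, and the less abundant loci (red outline) are spread around 1.15.

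Of the 12 named loci with the largest ratios, 11 were below 5 FPKM in control and passed that minimum only through siPAP, SCARNA1 being the exception. LOC100270804 went from 2.37 to 16.0 FPKM, LINC00115 from 2.41 to 16.2 FPKM and LOC100216546 from 3.14 to 20.2 FPKM, a range of log2 ratios from 2.68 to 2.76. KLHL31 went from 0.877 to 6.49 FPKM, SYT15 from 1.60 to 9.42 FPKM and MPZL2 from 1.09 to 6.49 FPKM. SYT15 had 4 loci under its name, and the other 3 had log2 ratios between 0.84 and 0.90. SCARNA1, a Cajal body RNA, went from 14.7 to 84.9 FPKM and was listed at 0 in both total RNA groups.

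By RefSeq biotype, lncRNA genes and protein-coding genes differed in direction. With 1 locus per name, 87 of 366 lncRNA genes were higher and 12 lower, with a median log2 ratio of 0.37, against 6.82% and 2.02% of all loci. Of 11003 protein-coding genes, 118 were higher and 188 lower, with a median of -0.13. Transcribed pseudogenes lay between, with 27 of 193 higher and 6 lower. Under the filter of 1 FPKM in control total RNA, 57 of 305 lncRNA genes were higher and 10 lower, and 66 of 10746 protein-coding genes were higher and 160 lower.

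Genes with few exons were more often higher. Under that filter, 8 of 180 protein-coding genes with 1 exon (4.44%) were 2-fold higher, 13 of 445 with 2 exons (2.92%), and 3 of 1711 with 20 or more (0.18%). The share of lower genes did not fall in the same way, at 2.22%, 2.47% and 1.69%. The median log2 ratio was 0.01 for 1 exon and -0.14 for 20 or more. Among lncRNA genes, 15 of 40 with 1 exon (37.5%) and 7 of 73 with 5 or more (9.59%) were higher. Exon numbers are those of the GENCODE canonical transcript and were found for 97.9% of the genes and for 83.7% of the higher genes.

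**Figure D4:**
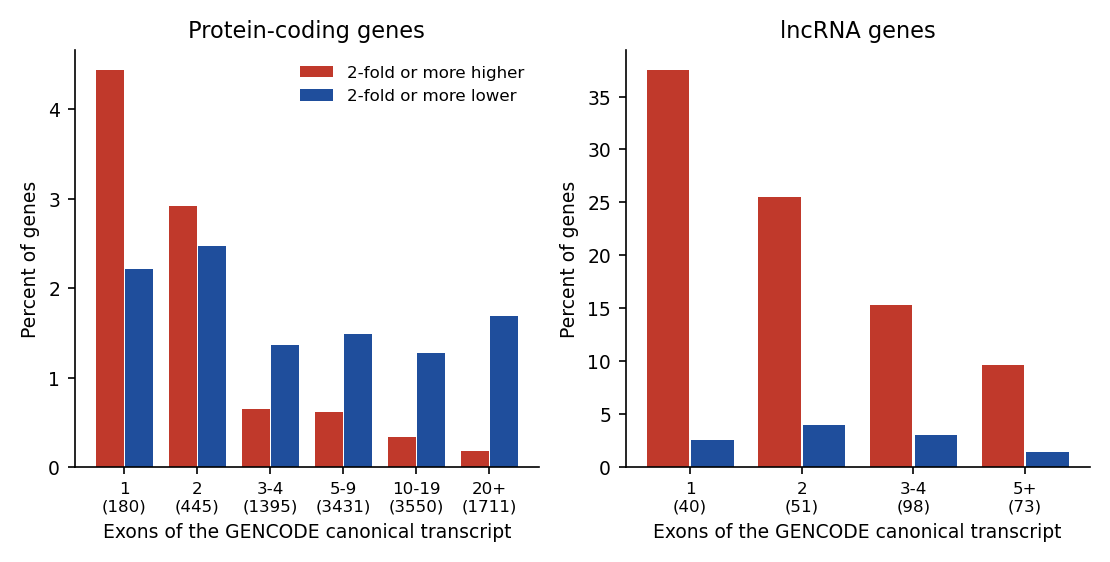
Percent of genes (y axis) that were 2-fold or more higher (red) or lower (blue) in siPAP nuclear RNA, by exon number of the canonical transcript (x axis, number of genes in parentheses), for protein-coding (left) and lncRNA genes (right) with at least 1 FPKM in control total RNA. The red bars shrink from 4.44% to 0.18% and from 37.5% to 9.59%, while the blue bars stay between 1.27% and 3.92%.

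Of 16 measured ncSNHGs, which carry snoRNAs in their introns and encode no protein, 5 (31.3%) were higher, against 6.82% of all loci, and 0 lower, and the median log2 ratio was 0.22 against -0.09 for all loci. SNHG10 went from 5.02 to 17.8 FPKM, SNHG7 from 71.8 to 220, DANCR from 26.6 to 60.5, RPL32P3 from 13.1 to 29.5 and SNHG1 from 264 to 571 FPKM. The others were within 2-fold, such as GAS5 at 332 and 308 FPKM, SNHG5 at 240 and 187 FPKM and ZFAS1 at 47.2 and 37.2 FPKM. SNHG7 differed between the fractions, and in total RNA it was at 87.2 FPKM in control and 73.7 FPKM in siPAP. The median of the whole list in total RNA was -0.16, against -0.06 for all loci there. The loci of SNHG7, SNHG1, DANCR and GAS5 are merged with those of their snoRNAs, so host and snoRNA share 1 value.

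Of 15 other lncRNAs chosen for known functions, 4 (26.7%) were higher, against 6.82% of all loci, and 0 lower, with a median of 0.30. NEAT1, the scaffold of paraspeckles, went from 54.7 to 150 FPKM in nuclear RNA and from 65.7 to 166 FPKM in total RNA. TUG1 went from 84.1 to 169 FPKM, MIAT from 1.86 to 5.86 FPKM and KCNQ1OT1, the imprinted antisense RNA of KCNQ1, from 0.738 to 1.59 FPKM, which passed the filter only through siPAP. MALAT1, whose mature 3′ end is made by RNase P and not by polyadenylation, was at 25.4 and 27.9 FPKM. Of 10 paraspeckle proteins, 0 differed by 2-fold, where 1.07% of protein-coding genes were higher and 1.71% lower. Of 117 loci with an antisense name, 20 (17.1%) were higher and 6 (5.13%) lower, against 6.82% and 2.02% of all loci. ZNF674-AS1 went from 6.52 to 30.0 FPKM and ZEB1-AS1 from 8.17 to 20.6 FPKM. Both are PROMPTs of the study's list, selected for a rise, so their own rise is no finding here. LOC100190986, also an lncRNA gene, went the other way, from 26.4 to 9.35 FPKM, and was similarly lower in total RNA at 30.4 and 11.2 FPKM.

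MicroRNA genes give a long primary transcript that Drosha cleaves in the nucleus. Of 25 loci named for a microRNA or its host alone, 8 were 2-fold higher, against 6.82% of all loci, and 0 lower, and their median log2 ratio was 0.69. Of the 8, 3 passed the filter only through siPAP. MIR3661, also among the 8, was at 1135 and 2439 FPKM in nuclear RNA but 0 and 2675 FPKM in total RNA. Whether its values are those of a primary transcript was not tested. MIR21 went from 8.12 to 20.7 FPKM, MIR148A from 1.76 to 6.62 FPKM, MIR31 from 1.73 to 5.08 FPKM and MIRLET7D from 2.34 to 4.94 FPKM. MIRLET7I, at 1.68 and 3.23 FPKM, missed 2-fold. The locus of the MIR17 cluster was at 32.8 and 22.2 FPKM. In total RNA MIR21, MIR148A, MIR31, MIRLET7D and MIRLET7I had ratios above 1 too, with log2 ratios between 0.90 and 2.12. The FPKM are those of the assembled loci, not of the mature microRNAs. The mature products of these 5 loci, and for comparison those of the MIR15A and MIR16-1 locus, which was close to equal in both groups, are shown from RefSeq (GRCh38.p14) with the seed, bases 2 to 8, in capitals.
hsa-miR-21-5p: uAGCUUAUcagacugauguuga
hsa-miR-148a-3p: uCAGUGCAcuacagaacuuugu
hsa-miR-31-5p: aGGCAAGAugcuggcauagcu
hsa-let-7d-5p: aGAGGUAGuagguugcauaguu
hsa-let-7i-5p: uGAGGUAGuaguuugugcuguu
hsa-miR-15a-5p: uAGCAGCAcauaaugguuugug
hsa-miR-16-5p: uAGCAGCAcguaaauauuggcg
The let-7 products share the seed GAGGUAG, and miR-15a and miR-16 share AGCAGCA, whereas the other 3 each have a seed of their own.

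Of 14 mRNAs known for nuclear-retained introns, 1 (7.14%) was higher and 0 lower, and their median was -0.06. Both the share, which rests on 1 gene, and the median were close to those of all loci, 6.82% and -0.09. Among protein-coding genes, 1.07% were higher and the median was -0.13. MAT2A, which makes S-adenosylmethionine, went from 135 to 345 FPKM in nuclear RNA, a log2 ratio of 1.35, and from 132 to 279 FPKM in total RNA. ARGLU1 was at 126 and 185 FPKM and OGT, which adds O-linked N-acetylglucosamine to proteins, at 84.4 and 107 FPKM. CLK1, a kinase of SR proteins, was at 50.5 and 49.1 FPKM. A locus value sums the intron-retaining and the spliced forms. Of 24 intronless mRNAs, 1 (4.17%) was 2-fold higher, TSPYL4 at 11.9 and 35.5 FPKM, and 0 lower. This share lay below the 6.82% of all loci but above the 1.07% of protein-coding genes. The median of the intronless list was 0.12, against -0.13 for protein-coding genes. PIGM, an enzyme of glycosylphosphatidylinositol anchor synthesis, was at 14.0 and 26.7 FPKM.

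The mRNAs of the decay and 3′ end machinery were within 2-fold. Among protein-coding genes only 1.07% were higher and 1.71% lower, so counts of 0 in lists this short are no result about these genes. Of 18 exosome subunits and cofactors 0 differed by 2-fold, and the largest difference was that of ZFC3H1, the zinc finger protein of the poly(A) exosome targeting connection, at 25.3 and 49.9 FPKM. The catalytic subunits DIS3 (69.2 and 69.3 FPKM) and EXOSC10 (40.2 and 40.8 FPKM) were nearly equal. The locus of PABPN1, merged with BCL2L2, was at 89.1 and 99.6 FPKM. The DIS3 locus is likewise merged with MZT1. Of 17 cleavage and polyadenylation factors 0 differed by 2-fold, and the largest ratio was that of CSTF2T (24.2 and 36.2 FPKM). CSTF3 was at 183 and 246 FPKM and the main PCF11 locus at 31.4 and 43.9 FPKM. Of 14 export factors 0 differed by 2-fold. ALYREF, an adaptor that loads mRNA for export, was at 149 and 85.5 FPKM in nuclear RNA and at 134 and 133 FPKM in total RNA, with log2 ratios of -0.80 and -0.02.

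The 12 named genes with the lowest ratios at 5 FPKM or more, PAPOLA first, had varied functions. CDH2, the adhesion protein N-cadherin, went from 67.7 to 22.8 FPKM. UCP2, a mitochondrial carrier, went from 28.0 to 8.62 FPKM and UBE2Q1, a ubiquitin-conjugating enzyme, from 24.3 to 8.15 FPKM. HIST1H1C, encoding a linker histone, went from 17 to 5.77 FPKM and STMN3, which binds tubulin, from 13.8 to 4.08 FPKM. The amino acid transporter SLC7A8 went from 13.0 to 3.74 FPKM, GAMT, the last enzyme of creatine synthesis, from 11.0 to 3.44 FPKM, and the phospholipid transfer protein PLTP from 10.3 to 3.64 FPKM. RPL23AP64, a ribosomal protein pseudogene, went from 6.79 to 1.58 FPKM, where reads of its parent gene and other copies may be shared. Each of these 9 genes was at least 2-fold lower in total RNA as well. C11orf65 was not, at 7.71 and 2.09 FPKM in nuclear RNA but 5.79 and 4.42 FPKM in total RNA.

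Several gene groups lay below the median of all loci. With few members each, their counts are to be read against the 2.02% lower and 6.82% higher among all loci. Of 22 p53 targets, 2 (9.09%) were lower and 1 (4.55%) higher, 4 had a ratio above 1, and the median log2 ratio was -0.43. MDM2, the ubiquitin ligase of p53, was at 41.4 and 20.2 FPKM and GDF15, a secreted stress factor, at 1.15 and 0.378 FPKM. The main TP53I3 locus was at 1.89 and 3.94 FPKM, whereas a less abundant TP53I3 locus went from 1.01 to 0.416 FPKM. CDKN1A, the cell cycle inhibitor p21, was at 13.8 and 9.19 FPKM. Of 17 ATF4 targets, which serve amino acid supply and stress, 3 (17.6%) were lower, against 2.02% of all loci, and 0 higher, and the median was -0.37. SLC7A11, the cystine transporter, was at 3.54 and 0.609 FPKM, DDIT4, an inhibitor of mTORC1, at 22.9 and 8.50 FPKM and PCK2 at 4.97 and 2.02 FPKM. ATF4 itself was at 192 and 233 FPKM.

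In the Notch pathway 2 of 14 genes (14.3%) were lower, against 2.02% of all loci, and 0 higher, with a median of -0.40. In each of the next 3 groups a single gene was lower. The receptor NOTCH3 was at 6.07 and 2.47 FPKM and the ligand DLL1 at 7.43 and 3.02 FPKM, while the target HES1 was at 30.4 and 26.5 FPKM. Of 12 WNT targets, 1 was lower, the receptor LGR5 at 3.10 and 0.871 FPKM, with a median of -0.34. Of 12 cadherins and catenins 1 was lower, CDH2, and the median was -0.37. CTNNB1, encoding β-catenin, was at 237 and 159 FPKM in nuclear RNA, a log2 ratio of -0.58, and had a log2 ratio of -0.21 in total RNA. RDH10, a retinol dehydrogenase, was the lower 1 of 14 retinoid genes, at 54.5 and 23.7 FPKM.

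A few groups lay above the median of all loci. Of 10 measured ERK feedback genes 2 (20%) were higher, against 6.82% of all loci, the ERK inhibitor SPRY4 at 0.161 and 1.00 FPKM and the transcription factor ETV5 at 0.569 and 1.57 FPKM, both of which passed the filter only through siPAP and so could only have a ratio above 1. The median of this list was 0.34, and 0.18 for the 8 members with at least 1 FPKM in control total RNA. Of 14 immediate early genes 0 differed by 2-fold, but 11 had a ratio above 1 and the median was 0.30, for instance JUN at 50.6 and 73.1 FPKM. MTHFD2L, a mitochondrial folate enzyme outside these groups, was at 4.13 and 12.3 FPKM. Its list, creatine and one-carbon metabolism, had a median of -0.20. The study names MTHFD2L among its high-confidence targets, selected for a rise, with raised coverage at the 5′ end of the gene. Its rise is therefore no finding here. The 29 DNA replication genes had a median of 0.02, with 0 past 2-fold. The 20 mitosis genes lay below the median of all loci, with a median of -0.22, 0 past 2-fold and 0 with a ratio above 1. ZNF genes, of which 19 of 417 were higher and 2 lower, had a median of 0.01, or -0.01 with the filter on control total RNA.

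**Figure D5:**
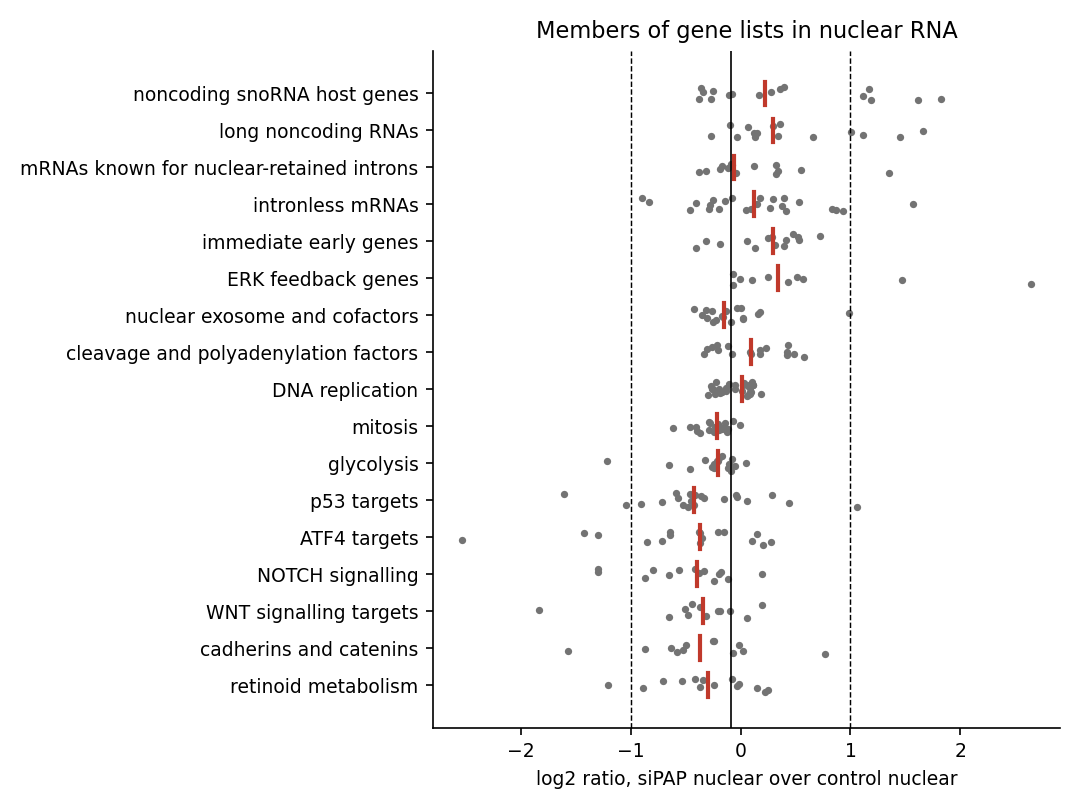
log2 ratio of siPAP over control nuclear RNA (x axis) for the measured members of 17 gene lists (grey points), with each list's median in red, the median of all loci as a solid line and 2-fold as dashed lines. The ncSNHGs and lncRNAs have members past 2-fold on the higher side, while p53 and ATF4 targets have medians of -0.43 and -0.37.

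Total RNA gave a similar picture from separate libraries, although the labels do not say whether both fractions came from the same cultures. In total RNA 720 of 13318 loci were higher (5.41%) and 207 lower (1.55%). Of the 908 loci higher in nuclear RNA that had a ratio in total RNA, 675 (74.3%) were 2-fold higher there too, and 870 (95.8%) had a ratio above 1. Of the 269 loci lower in nuclear RNA that had a ratio in total RNA, 117 (43.5%) were 2-fold lower there, and 240 (89.2%) had a ratio below 1. Over the 8389 named genes at 5 FPKM or more in all 4 groups, the nuclear minus the total log2 ratio had a median of -0.03 and an SD across genes of 0.16, and 71 genes (0.85%) differed by more than 0.5.

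Among the 16 named genes whose fractions differed most, 7 carried names of small nuclear or nucleolar RNAs, whose length is below that of a usual library fragment. SCARNA22 was at 332 and 832 FPKM in nuclear RNA but 607 and 190 FPKM in total RNA, and SNORA22 was at 816 and 402 FPKM in nuclear RNA but 210 and 644 FPKM in total RNA. Longer genes in this group were LOC100506233, at 9.76 and 29.6 FPKM in nuclear and 14.4 and 24.7 FPKM in total RNA, and RTN4RL1, encoding a Nogo receptor homolog, at 20.3 and 7.72 FPKM in nuclear and 7.59 and 6.70 FPKM in total RNA. TSTD3 was at 13.7 and 7.89 FPKM in nuclear and 5.93 and 6.49 FPKM in total RNA. IRF2, a transcription factor, was at 89.3 and 81.2 FPKM in nuclear RNA but 57.8 and 91.0 FPKM in total RNA.

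Markers of HEK293 cells and of other cell types were read in the same table. VIM, encoding vimentin, was at 292 and 330 FPKM and KRT8, a keratin, at 250 and 229 FPKM. None of 7 measured HEK293 markers differed by 2-fold, where 1.07% of protein-coding genes were higher and 1.71% lower. IRS4 and PAX2, also listed for this line, were below 1 FPKM in both groups. The summed nuclear FPKM of 7 blood markers was 1.87 in control and 1.01 in siPAP, that of 6 hepatocyte markers was 0.0325 and 0.0737, and that of 8 fibroblast and endothelial markers was 8.05 and 8.20. HBB, DCN, APOA2 and TTR were listed at 0 in both nuclear groups.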

How the data were processed

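Libraries were made by the authors with a stranded mRNA kit from polyadenylated RNA and sequenced as paired-end reads. Reads were aligned with TopHat2 and assembled with Cufflinks on hg19, per the paper's methods. The FPKM values were computed by the authors with Cuffdiff and deposited as the mean of the 2 libraries of each group. No read number per library was found in the sources, so the depth is unknown and no interval or floor was computed. The deposited table also holds the authors' fold changes, test statistics, p-values and calls, none of which was used.

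The log2 ratio was log2 of siPAP over control nuclear FPKM with no pseudocount, for loci above 0 in both groups whose larger mean reached 1 FPKM. Because the table holds group means, no test was run. Each gene name of a list was represented by its locus with the highest control total FPKM. Named genes were the 12 highest and 12 lowest ratios among loci with 1 gene name and at least 5 FPKM, the 8 highest unannotated ratios, the 8 genes in each direction whose nuclear and total ratios differed most, the targeted genes, genes the study assayed, and list members, of which members within 2-fold are examples chosen with their values known. The members and the 38 lists were chosen with earlier results of these data known. PROMPT classes and partners were taken from the study's annotation, and a partner was used only within 5000 bases. Biotypes came from RefSeq by name (99.3% of 11705 genes with a single name) and exon numbers and transcript starts from GENCODE on GRCh37. The functions were tested on simulated data, with Python 3.11.15, numpy 2.4.6 and pandas 2.3.3.
Alternatives were a pseudocount, other level minimums and folds, centring, and leaving out short RNAs.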

Additional observations from a re-analysis of the deposited data

How the results depend on the processing

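No paired analysis was possible because the table holds group means and no values of single libraries, and for the same reason no library could be left out. The counts of higher and lower loci (930 and 275) depended on the level and fold chosen, always with more higher than lower. They were 406 and 87 with 1 FPKM added, 303 and 100 at 5 FPKM or more, 3251 and 1298 with no minimum, 1539 and 1115 at 1.5-fold and 465 and 59 at 3-fold. At 0.5 FPKM or more 1520 were higher. The filter of 1 FPKM in control total RNA, chosen after seeing the data, left 376 higher. An added 1 FPKM shrinks the ratios of low loci, and the other settings admit other loci or folds. The other 10 counts, including those without short RNAs (chosen after seeing the data), with 0.1 FPKM added, centred on the median or limited to loci with status OK, stayed within 1.5 times. Centring on the median of all loci gave 1039 higher and 213 lower. Of 243 medians of gene lists and name classes, 0 with a size of 0.1 or more changed sign, and 12 moved by more than 0.2 or crossed 0. The median of unannotated loci was 0.48 with 1 FPKM added and 0.35 with the control total filter, and that of merged names, -0.07, was 0.01 after centring. Of 180 named-gene ratios, 179 kept their side of 2-fold, and SNORA22 missed it after centring at -0.94. Unknown depth limits every low value.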

Other observations

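Replication-dependent histone genes have mRNAs that normally end in a stem-loop without a poly(A) tail. Loci with HIST names did not move one way in this polyadenylated RNA. They were taken by name alone, and whether each is a functional replication-dependent gene or a pseudogene was not checked. Of 16 loci with a single HIST name, 3 were higher and 3 lower, against 6.82% and 2.02% of all loci, with a median log2 ratio of 0.24. HIST2H2BC went from 2.42 to 7.66 FPKM, HIST1H2AC from 1.18 to 3.77 FPKM and HIST1H2AK from 0.574 to 1.99 FPKM, which passed the filter only through siPAP. HIST1H1C went from 17 to 5.77 FPKM, HIST1H2BC from 1.72 to 0.332 FPKM and HIST1H4D from 1.20 to 0.0422 FPKM. HIST1H2BK, the most abundant, was at 55.0 and 47.1 FPKM.

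Many short RNAs were listed at 0 in a single group. Of 68 loci that reached 1 FPKM in one nuclear group and were listed at 0 in the other, 43 were shorter than 300 bases or had the name of a small RNA or microRNA. SNORD2 was listed at 39043 FPKM in control and at 0 in siPAP nuclear RNA, and SNORD102 at 0 and 28292.5 FPKM. Over all loci, 14 were 2-fold or more apart in opposite directions in nuclear and total RNA, of which 9 were unannotated. LINC00266-1 was at 1.42 and 0.447 FPKM in nuclear RNA but 0.155 and 1.04 FPKM in total RNA, and SNORA15 was at 357 and 1276 FPKM in nuclear RNA but 565 and 266 FPKM in total RNA. These differences were not tested.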
